A study of Mus musculus with 8 samples.

Results

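The circadian clock genes were followed in enamel organs of mouse first molars, as the 10 rows of the deposited count table whose gene name is Arntl, Clock, Per1, Per2, Per3, Cry1, Cry2, Nr1d1, Nr1d2 or Dbp, of 54532 genes in all. The mice were C57BL/6 wt pups that received no treatment, and RNA was taken at P5 (day 5, secretory stage) and at P12 (day 12, maturation stage). Each library was a pool of 5 pups, with 4 libraries at each age, numbered 1, 3, 4 and 5 (P5) or 1, 2, 3 and 4 (P12). The hour at which the molars were collected is not given in the labels or in the study's methods, so that age and hour of collection cannot be told apart in any comparison made here. Nothing in the labels ties pups to litters, so p-values measure the spread between these pools.

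In nearly every mammalian cell a transcriptional feedback loop keeps a daily rhythm. Arntl (BMAL1) and Clock form the activator that binds E-boxes, and Per and Cry proteins, whose genes it switches on, return to repress it. Nr1d1 and Nr1d2 (REV-ERB alpha and beta) repress Arntl through ROR elements, where the ROR receptors activate, and Dbp belongs to the PAR bZIP factors, which act at D-boxes. In teeth, clock genes have been described in ameloblasts, and enamel carries daily growth lines. The level of such a gene is known to depend on the hour, the tissue and the stage of development.

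Promoters were read first, since these genes are known through the elements they carry. Windows from 250 bases before to 50 bases after a start site, from RefSeq on GRCm38.p6, were found for 9 of the 10 genes, 13 windows in all, and Per2 had no entry. Exact matches were sought on both strands for the E-box CACGTG, the D-boxes TTATGTAA and TTACGTAA, the ROR element ANTAGGTCA and the cyclic AMP response element TGACGTCA. The windows of 4 genes held a match, and these are shown because each one carries an element bound by a protein of the same loop. Capitals mark the element, sequences run 5′ to 3′ along the gene, and no 2 matches overlapped.
Per1, chr11:69098699-69098998, plus strand, E-box 166 bases before the start: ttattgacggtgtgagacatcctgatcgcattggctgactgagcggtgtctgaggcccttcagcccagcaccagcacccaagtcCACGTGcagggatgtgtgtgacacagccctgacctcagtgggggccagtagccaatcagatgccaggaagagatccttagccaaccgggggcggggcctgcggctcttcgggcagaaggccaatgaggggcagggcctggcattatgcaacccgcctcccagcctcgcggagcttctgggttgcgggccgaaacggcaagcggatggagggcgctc
Cry1, chr10:85185005-85185304, minus strand, E-box 60 bases before the start: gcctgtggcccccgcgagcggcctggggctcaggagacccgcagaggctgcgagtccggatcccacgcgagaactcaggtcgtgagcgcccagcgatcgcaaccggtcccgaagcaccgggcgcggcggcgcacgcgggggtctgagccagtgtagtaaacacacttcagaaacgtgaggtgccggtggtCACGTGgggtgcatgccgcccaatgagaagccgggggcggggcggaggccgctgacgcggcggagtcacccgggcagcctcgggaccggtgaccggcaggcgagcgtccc
Per3, chr4:151044616-151044915, minus strand, D-boxes 205 and 158 bases before the start: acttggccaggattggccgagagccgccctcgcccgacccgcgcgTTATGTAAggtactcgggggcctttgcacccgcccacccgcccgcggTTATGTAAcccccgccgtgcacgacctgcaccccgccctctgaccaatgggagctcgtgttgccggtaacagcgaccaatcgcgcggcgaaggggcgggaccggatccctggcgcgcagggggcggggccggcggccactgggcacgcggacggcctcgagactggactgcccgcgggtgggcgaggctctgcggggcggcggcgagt
Arntl, chr7:113207261-113207560, plus strand, ROR element at base 29 of the transcript: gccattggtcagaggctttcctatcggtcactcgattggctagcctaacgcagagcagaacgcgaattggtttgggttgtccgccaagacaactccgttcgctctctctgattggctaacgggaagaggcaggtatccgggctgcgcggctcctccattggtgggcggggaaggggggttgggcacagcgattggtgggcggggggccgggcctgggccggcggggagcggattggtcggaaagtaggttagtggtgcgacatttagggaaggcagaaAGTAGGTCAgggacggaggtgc
Of the 32851 mouse promoter windows of this length, 7.15% held CACGTG, 0.938% held TTATGTAA, 0.119% held TTACGTAA, 0.661% held ANTAGGTCA and 1.79% held TGACGTCA. A match describes the letters of a window, and sites outside these windows were not examined.

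The libraries held 16574548 to 20262601 counts at P5, and 17588152 to 22013456 at P12. Normalized counts given below are counts divided by edgeR's TMM-scaled library size and multiplied by the mean of these sizes, 19006280. Stage markers matched the ages by edgeR. At P12, 4 of 4 secretory genes (Amelx, Ambn, Enam, Mmp20) were lower, where 28.4% of all genes were lower. The 5 of 5 maturation genes (Klk4, Amtn, Odam, Slc24a4, Wdr72) were higher, where 28.8% of all genes were higher. In 2 libraries the makeup stood apart. P12 library 4 had a summed normalized count of 3152 for 4 keratins of oral mucosa, against 19253 to 30595 in the other P12 libraries and 438 to 845 at P5. P5 library 5 had 12880 for the 5 maturation genes, against 36789 to 44228 in the other P5 libraries. Other tissue was present at both ages, as Dspp of odontoblasts lay between 136517 and 182568. Endothelial, leukocyte and Schwann cell markers were mostly higher at P12 (4 of 4, 3 of 4 and 3 of 4, against 28.8% of all genes). In such bulk samples fewer cells of a type and less RNA per cell cannot be told apart.

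All 10 clock genes passed the filter on low counts. At P12, 6 were higher (Per2, Nr1d1, Clock, Arntl, Nr1d2 and Per3), 1 was lower (Cry2), and 3 did not pass the test (Per1, Dbp and Cry1), by the quasi-likelihood test of edgeR at a Benjamini-Hochberg adjusted p under 0.05 over 16440 genes. Of all genes tested, 28.8% were higher and 28.4% lower by the same rule. A log2 fold change of at least 1 was reached by Per2 and Nr1d1, 2 of 10, where 11.3% of all genes were called higher past that size. The libraries of both ages did not overlap for the same 7 genes, 6 higher and 1 lower, against 26.0% and 26.6% of all genes. Without P5 library 5 and P12 library 4, in a fit added after the data were seen, 7 were higher, Dbp now among them, and 1 was lower. With libraries scaled by total count, which moved the median of all genes to 0.38, 9 were higher and 1 was lower. The median log2 fold change was 0.35 over the 10 genes and 0.01 over all genes tested. The summed normalized count of the 10 genes was 5577 to 6065 in the P5 libraries, and 7715 to 7861 in the P12 libraries.

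**Figure D1:**
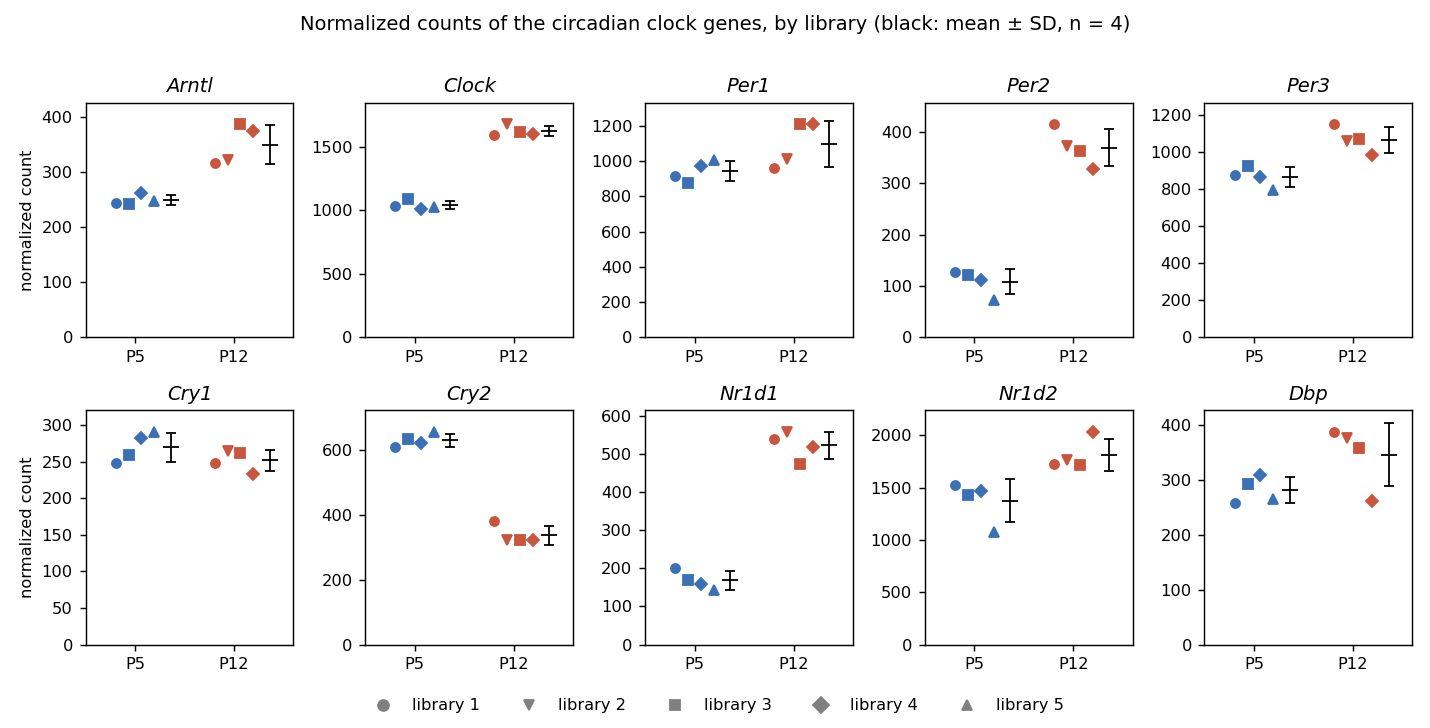
Normalized counts (vertical axes, starting at 0) of the 10 clock genes in the 4 P5 libraries (blue) and the 4 P12 libraries (red), with the marker giving the library number and black bars the mean ± SD. Per2 and Nr1d1 showed the widest gap between the ages, Cry2 was lower in all P12 libraries, and Per1, Cry1 and Dbp overlapped.

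Both genes of the activator were higher at P12. Clock (chr5:76209868-76304792, minus strand; coordinates of genes are those of the deposited table, GRCm38) encodes the partner of BMAL1. Its normalized counts were 1034, 1091, 1012 and 1025 at P5, in the order of libraries 1, 3, 4 and 5, against 1592, 1677, 1618 and 1597 at P12, in the order of libraries 1 to 4. The P12 libraries lay close together and far above every P5 library. The log2 fold change was 0.64 (SE 0.054, edgeR adjusted p = 2.03e-06), or 1.56-fold. Arntl (chr7:113207465-113314126, plus strand), which encodes BMAL1 and carries the ROR element shown above, was at 243, 243, 262 and 248 at P5 and at 317, 321, 387 and 374 at P12. Libraries 3 and 4 were higher than 1 and 2 at P12, and all 4 were above every P5 library. Its log2 fold change was 0.49 (SE 0.094, edgeR adjusted p = 0.000938). Of the exonic bases of Arntl, 0.439% are shared with another annotated gene, which had at most 7 counts in a library.

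The 3 Period genes, which encode the repressors that pair with the CRY proteins, differed from each other. Per2 (chr1:91415982-91459324, minus strand) was at 126, 122, 112 and 72 at P5 against 416, 374, 362 and 328 at P12. It was the gene of the 10 with the largest log2 fold change, 1.78 (SE 0.16, edgeR adjusted p = 3.1e-06), or 3.43-fold, and 95.2% of all genes tested had a lower value. P5 library 5 was low for Per2, and without it the log2 fold change was 1.62. Per3 (chr4:151003652-151044665, minus strand), whose promoter window held 2 D-boxes, was at 878, 927, 863 and 795 at P5 and at 1151, 1061, 1068 and 983 at P12. The ages did not overlap, but the change was small, 0.30 on the log2 scale (SE 0.071, edgeR adjusted p = 0.00356).

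Per1 (chr11:69095217-69109960, plus strand) is the Period gene known to respond within minutes or hours to glucocorticoids and to cyclic AMP signals. Its counts were 915, 879, 974 and 1010 at P5, against 961, 1012, 1211 and 1211 at P12. Of these, P12 libraries 1 and 2 fell within or close to the P5 range, while P12 libraries 3 and 4 lay above it. The log2 fold change was 0.22 (SE 0.089, edgeR adjusted p = 0.0559) and the two-sided exact permutation p was 0.114, n = 4 against 4. The call depended on single libraries, as the adjusted p was 0.019 without P12 library 1, 0.0391 without P12 library 2 and 0.161 without P5 library 3.

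The 2 Cryptochrome genes also differed. Cry2 (chr2:92403646-92434043, minus strand) was the only one of the 10 that was lower at P12. It was at 609, 634, 621 and 656 at P5 and at 380, 321, 323 and 321 at P12. P12 library 1 was higher than the other 3, which lay within 3 counts of each other, and all 4 were far below P5. The log2 fold change was -0.90 (SE 0.077, edgeR adjusted p = 2.02e-06), or 1.87-fold lower. An antisense gene, D930015M05Rik, shares 4.67% of the exonic bases of Cry2 and had between 5 and 25 counts. Cry1 (chr10:85131700-85185064, minus strand), whose window held an E-box, was at 248, 259, 282 and 291 at P5 and at 248, 264, 262 and 233 at P12. The ages overlapped, and the log2 fold change was -0.10 (SE 0.092, edgeR adjusted p = 0.368). With libraries scaled by total count the sign of Cry1 turned, to 0.27 (edgeR adjusted p = 0.0329), on a scale where the median of all genes moved to 0.38.

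The REV-ERB genes encode nuclear receptors that repress. Nr1d1 (chr11:98767932-98775333, minus strand) was at 202, 169, 160 and 144 at P5 and at 539, 559, 474 and 519 at P12. Every P12 library was above every P5 library by more than 2-fold, and the log2 fold change was 1.64 (SE 0.109, edgeR adjusted p = 2.97e-07), or 3.1-fold. The exons of Nr1d1 share 8.55% of their bases with Thra, a thyroid hormone receptor gene on the other strand, and whether the counting used strand is not given in the sources used here. Thra had 1270 to 2248 raw counts in a library, against 121 to 735 for Nr1d1. Thra went the other way, with a log2 fold change of -0.72 (edgeR adjusted p = 1.2e-05). The part of Thra in the counts of Nr1d1 was not tested. Nr1d2 (chr14:18204054-18239127, minus strand) was at 1522, 1430, 1470 and 1072 at P5 and at 1723, 1759, 1717 and 2033 at P12. P5 library 5 was low and P12 library 4 was high, and the log2 fold change was 0.40 (SE 0.106, edgeR adjusted p = 0.00724). Without both of these libraries, a fit added after the data were seen, it was 0.23 (edgeR adjusted p = 0.00242).

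Dbp (chr7:45705088-45710203, plus strand) is a direct output of the activator and one of the most strongly rhythmic transcripts known in many tissues. It was at 258, 293, 308 and 265 at P5 and at 388, 376, 359 and 261 at P12. In P12, 3 libraries were above the P5 range, while P12 library 4 was near its lower end. The log2 fold change was 0.30 (SE 0.127, edgeR adjusted p = 0.0605), with an exact permutation p of 0.114, n = 4 against 4. Without P12 library 4 it was 0.41 (edgeR adjusted p = 0.00227). Of the exonic bases of Dbp, 18.0% lie in Sphk2, a sphingosine kinase gene on the opposite strand, which was itself higher at P12 (log2 fold change 0.36, edgeR adjusted p = 0.00184). Sphk2 had 308 to 799 raw counts in a library, against 201 to 529 for Dbp. The part of Sphk2 in the counts of Dbp was not tested.

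**Figure D2:**
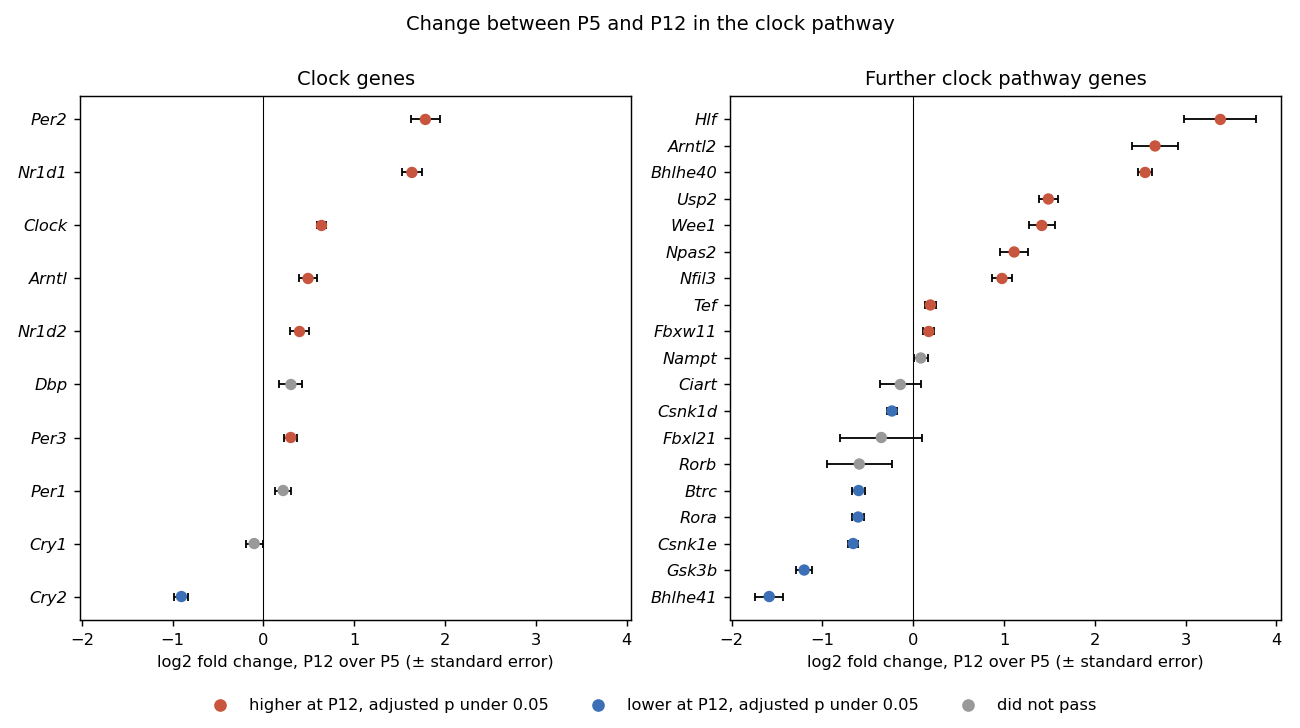
Log2 fold change of P12 over P5 (horizontal axes) with its standard error, from the edgeR fit over 4 libraries at each age, for the 10 clock genes (left) and 19 further genes of the pathway (right). Red points were higher at P12, blue points lower, both at an adjusted p under 0.05, and grey points did not pass; Hlf reached 3.38, Per2 1.78, Cry2 -0.90 and Bhlhe41 -1.59.

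Ratios of 2 clock genes in the same library do not depend on how libraries are scaled, and they show whether related genes changed by different amounts. The log2 ratio of Nr1d1 to Nr1d2 was -3.02 ± 0.15 (SD, n = 4) at P5 and -1.79 ± 0.15 at P12, a difference of 1.23. The ratio of Per1 to Per2 fell from 3.15 ± 0.45 to 1.57 ± 0.30, and that of Per3 to Per2 from 3.02 ± 0.29 to 1.53 ± 0.051. At P12 the ratio of Per3 to Per2 lay between 1.47 and 1.58 in the 4 libraries (SD 0.051), the narrowest spread of the 5 ratios at that age. The ratio of Cry1 to Cry2 rose from -1.22 ± 0.080 to -0.42 ± 0.16. For these 4 ratios the ages did not overlap, with an exact permutation p of 0.0286, the smallest that 70 splits can give, and 0.0357 after Benjamini-Hochberg adjustment over the 5 ratios. Those of Per1 and Per3 share Per2, so they are not separate results. All 4 use the same counts as the single genes above, so they are not support apart from those tests. Among single genes 26.0% were higher and 26.6% lower without overlap, and the share over gene pairs was not computed.

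The ratio of Dbp to Arntl, genes that peak at different hours in most tissues, behaved otherwise. It was 0.09, 0.27, 0.23 and 0.10 at P5, against 0.29, 0.23, -0.11 and -0.52 at P12. The P12 libraries spread over a range that held all P5 values, and the difference of -0.20 had an exact permutation p of 0.371 (also 0.371 adjusted over the 5 ratios), n = 4 against 4. It rested on single pools, with a difference of -0.04 without P12 library 4 and -0.31 without P12 library 1. Arntl was lower in P12 libraries 1 and 2 than in 3 and 4. Dbp did not split these libraries in the same way. Its P12 values were 388, 376, 359 and 261, so library 3 lay near libraries 1 and 2, and only library 4 was low.

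**Figure D3:**
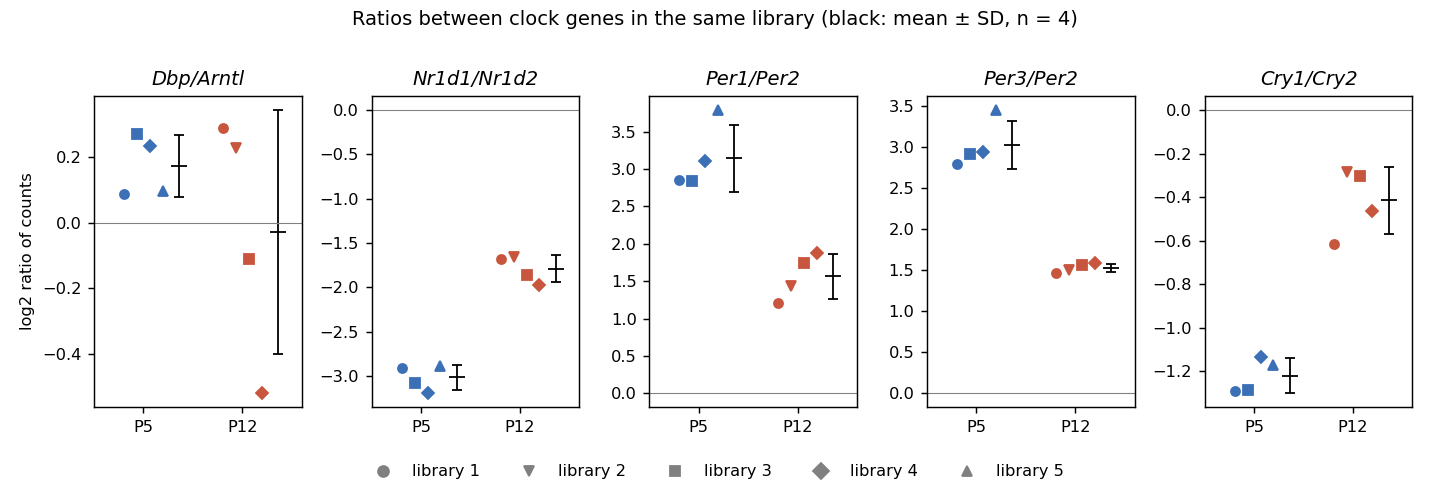
Log2 ratio of counts of 2 clock genes in the same library (vertical axes, a separate range in each panel) for the P5 (blue) and P12 (red) libraries, with black bars for the mean ± SD. Dbp over Arntl spanned -0.52 to 0.29 at P12, while the other 4 ratios separated the ages.

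The order of the genes by level differed between the ages. Levels are normalized counts per kilobase of the deposited gene length, as mean ± SD over 4 libraries. Nr1d2 was highest at both ages, at 254 ± 37.8 at P5 and 334 ± 27.9 at P12, followed by Per1 at 168 ± 10.4 and 195 ± 23.3. At P5, Cry2 (99.7), Dbp (93.9), Per3 (90.1), Cry1 (80.9) and Clock (75.8) came next, and each overlapped its neighbour in this order. Nr1d1 (54.8), Arntl (33.1) and Per2 (18.4) followed, each below the one before in all libraries. At P12, Nr1d1 had moved to the third place at 170 ± 11.8, where it overlapped Per1. Clock (118), Dbp (116) and Per3 (111) overlapped, as did Cry1 (75.4), Per2 (63.2), Cry2 (53.2) and Arntl (46.5), each with the next. Cry2 stood at rank 3 at P5 and rank 9 at P12, and Per2 at rank 10 and rank 8.

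Within an age, most clock genes varied no more between libraries than a typical gene. The SD of log2 normalized counts had a median over all genes tested of 0.155 at P5 and 0.171 at P12. Of the 10 clock genes, 7 lay below it at P5 and 8 at P12. This median covers genes of all levels and was not matched to the level of the clock genes. Clock had 0.048 and 0.034, the latter 0.072 with total count scaling, and Per3 had 0.092 and 0.093, the latter then 0.147. Larger values were found for Per2 at P5 (0.37), Nr1d2 at P5 (0.232), Nr1d1 at P5 (0.203), Per1 at P12 (0.174) and Dbp at P12 (0.263), and 31.9% of all genes had a larger SD than Dbp at P12.

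At P5, the pool with low maturation markers was P5 library 5. It had the lowest count of the 4 for Per2, Per3, Nr1d1 and Nr1d2, and the highest for Per1, Cry1 and Cry2. These 4 lowest and 3 highest of 10 are near the shares over all genes tested, 30.0% and 31.8%. The 4 that were low in it were called higher at P12, a change that a low P5 library itself enlarges. Without it their log2 fold changes were 1.62 (Per2), 0.26 (Per3), 1.56 (Nr1d1) and 0.29 (Nr1d2). With all libraries they were 1.78, 0.30, 1.64 and 0.40, and each gene stayed called without P5 library 5. Arntl and Clock, also higher at P12, were not lowest in it. At P12, library 4 was lowest for 5 of the 10 genes (34.3% of all genes were lowest in it), among them Dbp, Per2 and Per3, and highest for 1, Nr1d2 (33.4% of all genes). This is the library with few oral mucosa transcripts, and the part of tissue makeup in these deviations was not tested.

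**Figure D4:**
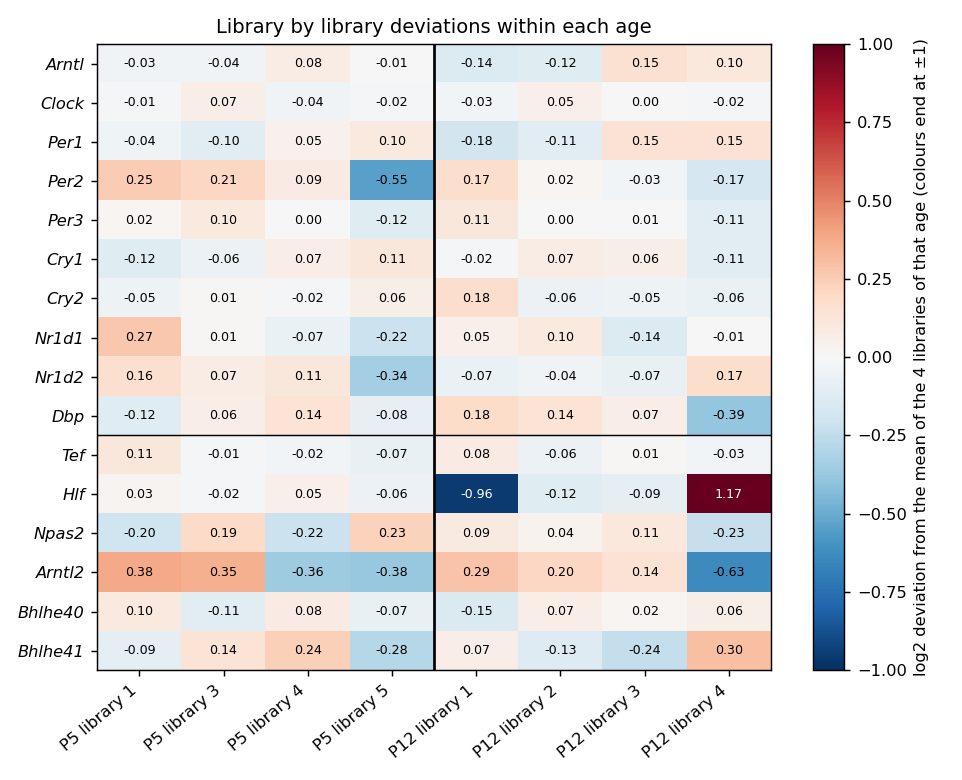
Deviation of each library (columns) from the mean of its age, in log2 normalized counts, for the 10 clock genes and 6 further genes of the pathway (rows), printed in each cell; red is above and blue below the mean. Dbp was at -0.39 in P12 library 4, Per2 at -0.55 in P5 library 5, and Hlf at -0.96 and 1.17 in P12 libraries 1 and 4.

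The genes whose libraries deviated most like Dbp, across all 8 libraries and 11344 genes whose normalized count averaged 100 or more, were Shox2 (Pearson's r = 0.98), Znhit6 (0.98) and Rin1 (0.98). For Arntl they were Ccdc50 (0.98), Brf2 (0.96) and Dgat1 (0.96). These correlations across 8 deviations share library makeup and depth and are given as a description. None of the 6 is a clock gene. Among the clock genes, the one most like Arntl was Per1 (r = 0.91, rank 28), and the one most like Dbp was Per3 (r = 0.69, rank 1161).

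The pathway was widened to 19 further genes. At P12, 9 of them were higher, 6 lower and 4 did not pass the test (Ciart, Rorb, Fbxl21 and Nampt), with a median log2 fold change of 0.08, read against the same 28.8% and 28.4% of all genes. No overlap between the ages was seen for the same number, 9 higher and 6 lower (26.0% and 26.6% of all genes).

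Both paralogs of the activator genes were higher at P12. Npas2, which can take the place of Clock, was at 68.1, 89.4, 67.2 and 92.1 at P5 and at 182, 176, 184 and 146 at P12 (log2 fold change 1.11, SE 0.155, edgeR adjusted p = 9.76e-05). Arntl2 (BMAL2) was at 48.9, 48.1, 29.0 and 28.6 at P5 and at 290, 273, 262 and 153 at P12. Its log2 fold change was 2.66 (SE 0.252, edgeR adjusted p = 4.74e-06), with P12 library 4 lowest. Per kilobase Arntl2 stood at 6.79 ± 2.0 at P5 and 43.0 ± 10.9 at P12, when Arntl was at 46.5 ± 4.77.

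Of the DEC repressors, which compete for E-boxes, the paralogs went in opposite directions. Bhlhe40 (DEC1) was at 748, 650, 741 and 665 at P5 and at 3713, 4300, 4171 and 4272 at P12, or 5.87-fold (log2 fold change 2.55, SE 0.077, edgeR adjusted p = 1.02e-09). Bhlhe41 (DEC2) was at 266, 312, 335 and 233 at P5 and at 99.0, 86.1, 79.7 and 116 at P12 (-1.59, SE 0.157, edgeR adjusted p = 6.73e-06). An antisense gene that shares 19.0% of its exonic bases had at most 14 counts. Ciart (CHRONO), another repressor of the activator, was at 79.7, 53.7, 44.8 and 74.1 at P5 and at 52.1, 51.5, 54.7 and 71.3 at P12, with overlap (-0.14, SE 0.224, edgeR adjusted p = 0.61).

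Rora, a receptor that activates at ROR elements, was lower at P12. It was at 985, 1043, 1018 and 1007 at P5 and at 714, 638, 627 and 679 at P12, without overlap (log2 fold change -0.61, SE 0.063, edgeR adjusted p = 1.02e-05).

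Among the factors that act at D-boxes, Hlf had the largest change of the pathway. It was at 154, 150, 157 and 145 at P5, and at 705, 1260, 1284 and 3084 at P12. The P5 pools were nearly equal and the P12 pools differed by more than 4-fold, with library 4 highest, the pool in which Dbp was lowest. The log2 fold change was 3.38 (SE 0.396, edgeR adjusted p = 2.56e-05) and its SD at P12 was 0.877, exceeded by 3.28% of all genes. Beside it, Krt13 of oral mucosa was at 8878, 11244, 5840 and 510 in these libraries and Amelx at 24448, 23064, 58081 and 96613. Their part in the spread of Hlf was not tested. Tef, the third PAR bZIP gene, was at 2477, 2274, 2257 and 2181 at P5 and at 2767, 2511, 2632 and 2560 at P12 (0.19, SE 0.062, edgeR adjusted p = 0.0215). The call of Tef was lost when P5 library 3, 4 or 5 or P12 library 1 or 3 was left out, with adjusted p up to 0.0684. Nfil3, which represses at D-boxes, was at 171, 206, 191 and 229 at P5 and at 337, 429, 417 and 391 at P12 (0.98, SE 0.114, edgeR adjusted p = 2.49e-05).

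Genes of enzymes that act on clock proteins, and known outputs, were mixed. Csnk1e, a casein kinase that phosphorylates PER, was lower, at 1518, 1470, 1516 and 1660 against 982, 964, 985 and 965 (log2 fold change -0.66, SE 0.058, edgeR adjusted p = 2.52e-06). Gsk3b, a kinase of several clock proteins, was lower too, at 5196, 5100, 4694 and 4486 against 1890, 1938, 2251 and 2392 (-1.20, SE 0.089, edgeR adjusted p = 6.71e-07). Usp2, a ubiquitin protease and known clock output, was higher, at 195, 193, 190 and 158 against 452, 535, 574 and 504 (1.49, SE 0.104, edgeR adjusted p = 4.32e-07). Each of these 3 was without overlap between the ages. Csnk1d (-0.24, but 0.14 with total count scaling) and Btrc were lower, and Fbxw11 and Wee1, a cell cycle kinase and clock output, were higher. The call of Fbxw11 (0.17, edgeR adjusted p = 0.0363) was lost in 7 of 8 fits that left out a library.

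Signals that are known to reset or drive Per1 and Per2 in other tissues are given beside the clock genes. A list of 8 glucocorticoid genes included Per1 and Nr3c1, the gene of the receptor. Of these, 6 were higher at P12 (Sgk1, Tsc22d3, Klf9, Dusp1, Fkbp5 and Nr3c1), against 28.8% of all genes. In the list 1 was lower (Zbtb16, between 4.02 and 54.8), with overlap between the ages. Tsc22d3 (GILZ) went from between 568 and 622 to between 2130 and 2717, and Klf9 from between 200 and 336 to between 1302 and 1420. Fkbp5 went from between 170 and 288 to between 381 and 588. Of 8 immediate early genes, 7 were higher at P12, among them Fos, Junb and Nr4a1, where 28.8% of all genes were higher. Egr1 did not pass (0.52, edgeR adjusted p = 0.0631). Fosb and Ier2, called higher, overlapped between the ages, and 5 of the 8 were without overlap (26.0% of all genes). Per1 itself, at 0.22, did not pass the test. The part of these signals in the clock genes was not tested.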

How the data were processed

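First molar enamel organs were profiled by RNA-seq of polyadenylated RNA, as 4 pools of 5 pups at P5 and 4 at P12. The authors deposited raw read counts per gene as whole numbers, without normalization. The aligner, the counter and its strand setting are not given in the sources used here. The submitters' processing notes name CASAVA and mm39, but 53548 of the 54532 genes have the coordinates of GENCODE M21, which is GRCm38, and GRCm38 is used here. Groups and library numbers come from the sample labels, and each count column was matched by its title.

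Tests used edgeR 4.0.16 (R 4.3.3) on all 8 libraries without a covariate, with filterByExpr, TMM and the quasi-likelihood functions glmQLFit and glmQLFTest, and p-values were adjusted by Benjamini-Hochberg over 16440 genes (threshold 0.05). SE is the absolute log2 fold change divided by the square root of F. Single genes and ratios were also compared by two-sided exact permutation over 70 splits, on log2 values with a pseudocount of 1, whose smallest p is 0.0286. Alternatives were DESeq2 1.42.0, which the study's methods name, limma-voom (limma 3.58.1), DESeq2's size factors, total count scaling, scaling without the 20 most abundant genes, no filter, a minimum of 10 counts per library, leaving out each library, the replicate number as a block, an adjusted p under 0.01 and a log2 fold change of at least 1. Levels used the deposited gene length. The length of merged exons was the same for every clock gene, so that alternative could give no other result.

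Reads carried no molecular identifiers, so floors cover counting error only, and 3 counts equal between 0.136 and 0.181 CPM here. No library was treated as a duplicate, since the chi-square over its degrees of freedom ranged from 5.04 to 84.9 in the 12 pairs of the same age. On simulated counts with 16165 genes tested, edgeR recovered 66.7% of genes changed by 1 log2 unit and 98% of those changed by 2, with 10 false calls among 170. The simulation changed only 93 and 100 genes, whereas 4735 were called higher and 4676 lower in the data. These rates may therefore differ from those of the real fit.

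The members and gene lists were chosen with earlier results of these data known. Named are the 10 clock genes, the 6 further pathway genes with the smallest adjusted p, Npas2, Tef, Hlf, Nfil3, Bhlhe40, Bhlhe41, Ciart and Rora, markers beside a result, and the 3 genes that deviated most like Dbp and Arntl. Some pathway genes are not reported here. Other genes were named after their values were seen. Lists of markers for secretory and maturation ameloblasts, oral mucosa, mesenchyme and bone, skeletal muscle, endothelium, leukocytes, erythroid and Schwann cells, glucocorticoid response and immediate early genes were tested in the same fit. Results for those not in the report are 1 of 5 mesenchyme and bone genes higher and 1 lower, 1 of 6 muscle genes higher and 5 lower, and 2 of 5 erythroid genes lower at P12. Of all genes, 28.8% were higher and 28.4% lower. Of those called lower, 3 muscle genes and 1 erythroid gene were without overlap between the ages (26.6% of all genes). Plots used matplotlib 3.10.9, and tables scipy 1.17.1, numpy 2.4.6 and pandas 2.3.3.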

Additional observations from a re-analysis of the deposited data

Results flagged for a closer look

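Groups of 4 libraries were formed by the clock genes and the further pathway genes at each age. In 5 of 58 groups 1 library lay far from the other 3, where chance gives about 1 in 20, or 2.9. The groups share the same 8 libraries and are not independent, so 5 against 2.9 is given as a description. Cry2 was at a normalized count of 380 in P12 library 1, against 321 to 323 in the others, still below all P5 libraries (609 to 656). Nr1d2 was at 2033 in P12 library 4, against 1717 to 1759, and without that library its log2 fold change was 0.33 (edgeR adjusted p = 0.0123). The remaining ones were further pathway genes. Ciart, a repressor of the activator, was at 71.3 in P12 library 4, against 51.5 to 54.7. Wee1 was at 390 in the same library, against 560 to 587, and at 170 to 221 at P5. Usp2 was at 158 in P5 library 5, against 190 to 195. P12 library 4, the pool with few oral mucosa transcripts, was the distant one in 3 of the 5 cases, and whether its makeup has a part in them was not tested.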

How the results depend on the processing

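Across 18 other fits, 7 of the 10 clock genes (Arntl, Clock, Per2, Per3, Cry2, Nr1d1 and Nr1d2) and 15 of the 19 further genes kept their direction, where called, and their side of the threshold. Rorb and Fbxl21, which did not pass, had 17 of these fits, as neither reached 10 counts in every library. With a log2 fold change of at least 1, the clock genes higher at P12 numbered 2 and those lower 0 (at any p, as Cry2 was at -0.90), and the further genes 6 and 2. The clock genes higher at P12 numbered 9 with total count scaling, 8 with no filter and 6 or 7 in the other fits. Leaving out 1 library gave 6 to 7 clock genes higher and 1 lower, and 7 to 8 further genes higher and 6 lower. Per1 passed in 7 of the 18 fits and Dbp in 4. Total count scaling moved the median of all genes to 0.38, with 8885 genes higher and 2330 lower against 4735 and 4676, and turned Cry1 to 0.27 and Csnk1d to 0.14 (from -0.24); relative to that median they were at -0.11 and -0.24. No pairing by replicate number was seen, as same-numbered libraries had correlations of their deviations between -0.03 and 0.02. Libraries of different numbers had values between -0.08 and 0.08. Such values do not settle whether same-numbered libraries share a litter or batch. With the replicate block over the 6 libraries of shared numbers, 7 clock genes were higher and 1 lower, the same numbers as without the block, and 3867 of all genes were higher and 3843 lower against 4076 and 4041. Csnk1d lost its call under the block (-0.21, edgeR adjusted p = 0.0532). The lowest raw count of a clock gene in a library was 68, for Per2. The comparison rests on 4 pools at each age, with the hour of collection not given.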
